A study of Homo sapiens with 9 samples.

Results

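Proteasome genes were described in MEG-01 cells, an established megakaryoblast line that came from a human chronic myeloid leukaemia. Members were all genes of the deposited tables whose symbol is PSM, a letter from A to G and a number with no further suffix, which keeps pseudogenes out. The rule took 48 of 63241 genes. The 3 groups of 3 libraries each were cells labelled control, cells treated with As2S2 (arsenic disulfide) and cells treated with PMA (a phorbol ester that activates protein kinase C and is used to push such lines towards megakaryocytes). All groups share the line, and no genotype, dose or treatment time is given in the labels. The series asks how As2S2 acts on megakaryocyte differentiation through the SRC, MEK and ERK kinases. No label says that replicates were grown as separate cultures, and p-values here cover the spread of the libraries alone, which may be technical.

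The proteasome is the protease that degrades most ubiquitin-tagged protein in the cell. Its 20S core is a barrel of alpha rings, which gate the entrance, around beta rings, which hold the catalytic sites, and the 19S regulatory particle caps the barrel, binds ubiquitin chains, removes them and unfolds the substrate with a ring of ATPases. Interferon induces a different set of catalytic subunits: PSMB8, PSMB9 and PSMB10 replace PSMB5, PSMB6 and PSMB7 in newly built cores to form the immunoproteasome, and PSME1 and PSME2 form the PA28 activator, both known for shaping the peptides that MHC class I presents. In many cells the transcription factor NFE2L1 raises the subunit genes together when proteasome activity falls short. In megakaryocytes, proteasome activity is known to be needed for platelet production.

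Total counts per library ran from 18.2 to 20.37 in units of 1e6. Values below are CPM (counts per 1e6 counts after TMM scaling), fitted over 14592 genes with the quasi-likelihood test of edgeR, and levels between genes are TPM, which is per transcript length. Control replicate 2 and As2S2 replicate 1 were the outlying libraries of their groups, with a chi-square per gene of 12.6 or more against their partners where other pairs had 3.56 or less, so counts are also given without both. On this CPM scale the median log2 fold change of all genes tested was 0.0 in each comparison. The deposited TPM put that median at -0.40 for PMA against control, at -0.10 for As2S2 against control and at 0.29 for As2S2 against PMA. Changes below are therefore relative to the typical gene. Of 10 megakaryocyte markers, 8 averaged at least 1 CPM, and PF4 and VWF did not. The summed CPM of the 10 ran from 1389 to 1576 in control, from 1407 to 1592 with As2S2 and from 1486 to 1506 with PMA. Single markers moved both ways. With PMA 4 of the 8 tested rose and 2 fell (50% and 25%, against 30.8% and 31.1% of all genes tested). Log2 fold changes ran from -1.05 to 2.80. With As2S2 the counts were also 4 and 2 (against 20.3% and 19.6% of all genes), from -0.50 to 0.82. Of 22 markers of other cells, 10 averaged at least 1 CPM, MS4A1 was at 0 in all 9 libraries, and their summed CPM ran from 359 to 401 in control, 413 to 443 with As2S2 and 477 to 504 with PMA. Of the 12 of these that were tested, 6 rose and 3 fell with PMA (50% and 25%, from -2.42 to 5.83). With As2S2, 3 rose and 3 fell (25% each way, near the shares of all genes, from -0.74 to 1.1). Both PMA ends were genes at low levels. CD79A read 0.44 CPM in control and 0.08 with PMA, and COL1A1 read 0.19 and 11.1 CPM. Markers at higher levels also moved with PMA. PECAM1 read 41.3 CPM in control and 129.5 with PMA (1.65), and LYZ and KRT8 also rose (0.74 and 0.57). ITGAM read 17.3 and 4.69 CPM (-1.88), and EPCAM fell (-0.86), while CD4 and KRT18 were not called. With As2S2, KRT18 rose from 84.6 to 180.9 CPM, and PECAM1 (0.27) and CSF1R (0.75) also rose. CD4 (-0.53), ITGAM (-0.74) and KRT8 (-0.29) fell with As2S2. The part of the markers of other cells in the results was not tested. In bulk libraries, fewer cells of a type and less RNA per cell cannot be told apart.

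Promoter sequences are shown for the inducible genes PSMB8, PSMB9, PSMB10, PSME1 and PSME2, which are compared throughout, and for PSMD3, a 19S lid gene that rose with As2S2. RefSeq windows on GRCh38.p14 (from 250 bases before to 50 bases after an annotated start) were found for 42 of the 48 members, as 51 windows. Each line below gives 220 bases on the strand of the gene, from 200 bases before the start into the first bases of the transcript. The deposited files name no human build, so coordinates are those of the reference alone. Capitals mark 3 motifs, searched on both strands: the interferon-stimulated response element (ISRE, GAAANNGAAA, which interferon regulatory factors bind), the gamma-activated site (GAS, TTCNNNGAA, bound by STAT proteins) and the antioxidant response element (ARE, TGACNNNGC, bound by NFE2L1 and NFE2L2).
PSMB10 (chr16:67936831-67937050, minus strand): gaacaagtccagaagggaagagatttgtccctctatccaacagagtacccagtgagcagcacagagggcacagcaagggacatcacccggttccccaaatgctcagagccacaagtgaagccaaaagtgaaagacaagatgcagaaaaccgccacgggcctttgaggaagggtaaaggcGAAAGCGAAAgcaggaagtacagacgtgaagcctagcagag
PSMB8 (chr6:32844028-32844247, minus strand): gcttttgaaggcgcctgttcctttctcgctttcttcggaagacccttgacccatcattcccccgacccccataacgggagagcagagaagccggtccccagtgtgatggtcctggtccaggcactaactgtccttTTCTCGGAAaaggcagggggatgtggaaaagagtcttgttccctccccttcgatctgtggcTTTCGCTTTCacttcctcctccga
PSMB9 (chr6:32853992-32854211, plus strand): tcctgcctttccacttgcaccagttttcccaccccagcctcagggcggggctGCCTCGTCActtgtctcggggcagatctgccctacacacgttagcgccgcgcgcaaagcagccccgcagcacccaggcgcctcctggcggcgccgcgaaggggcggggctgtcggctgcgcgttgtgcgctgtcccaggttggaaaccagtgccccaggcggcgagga
PSME1 (chr14:24135994-24136213, plus strand): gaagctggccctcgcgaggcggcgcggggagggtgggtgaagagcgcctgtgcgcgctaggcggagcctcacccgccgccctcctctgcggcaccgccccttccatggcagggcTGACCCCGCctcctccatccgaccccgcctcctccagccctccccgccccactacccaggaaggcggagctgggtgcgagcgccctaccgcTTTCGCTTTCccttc
PSME2 (chr14:24146591-24146810, minus strand): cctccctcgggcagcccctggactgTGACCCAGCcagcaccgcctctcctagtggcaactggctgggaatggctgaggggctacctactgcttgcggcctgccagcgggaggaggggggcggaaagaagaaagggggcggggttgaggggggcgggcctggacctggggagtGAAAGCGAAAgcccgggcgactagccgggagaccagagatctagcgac
PSMD3 (chr17:39980607-39980826, plus strand): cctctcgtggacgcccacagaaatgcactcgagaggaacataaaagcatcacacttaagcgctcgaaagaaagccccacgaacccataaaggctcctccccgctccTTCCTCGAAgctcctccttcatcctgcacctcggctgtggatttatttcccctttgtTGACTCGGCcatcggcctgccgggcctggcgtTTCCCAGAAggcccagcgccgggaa

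With the first transcribed base counted as 0, the ISRE lay at -21 to -12 in PSMB10, at -28 to -19 in PSME2, at -4 to 5 in PSMB8 and at 5 to 14 in PSME1. All 4 carry the same letters, GAAAGCGAAA, read on the minus strand in PSMB8 and PSME1. PSMB9, whose upstream region also serves the neighbouring TAP1 gene on the other strand, had no ISRE match in its window and had an ARE match at -148 to -140. ARE matches also lay at -86 to -78 in PSME1 and at -175 to -167 in PSME2. PSMD3 had ARE matches at -37 to -29 and, beyond the stretch shown, at 33 to 41. It also had GAS matches at -94 to -86 and at -5 to 3, and PSMB8 had a GAS match at -65 to -57. The second RefSeq window of PSMB8 held none of the 3 motifs. PSMD2, PSMD11, PSMD13, PSMC3, PSMB4 and PSMC4 rose with As2S2 at smaller adjusted p than PSMD3, and their promoters are not shown. None of the 3 motifs was found for PSMD11, PSMD13 or PSMC3. PSMD2 had a GAS match but no ARE or ISRE, PSMC4 had an ARE and a GAS match, and PSMB4 had an ISRE match. An ISRE match was present in 13.7% of the 51 member windows and in 3.57% of all 35116 windows. The ARE was found in 29.4% of the member windows and 13.3% of all windows, and the GAS in 15.7% and 7.66%. The promoter box CCAAT stood in 39.2% and 34.6%. The 3 other members with an ISRE match were PSMA4, PSMB4 and PSMG4, and their transcripts did not move alike. Among matched members called higher with PMA, 6 of 30 held an ISRE and 11 of 30 an ARE, and among those called higher with As2S2 the counts were 1 of 19 and 7 of 19. Of members not called with As2S2, 4 of 18 held an ISRE and 7 of 18 an ARE. With PMA the ARE stood in 2 of 6 called lower and 2 of 4 not called, and the ISRE in 1 of 6 and 0 of 4. Of the 3 matched members called lower with As2S2, 2 held an ISRE and 1 an ARE. A match is a string of letters in this window and not a measured binding site.

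Of the 48 members, 46 were detected, and all 46 passed the filter on low counts. PSMA8, the form of an alpha subunit used in testis, and PSMB11, the catalytic subunit of the thymus, had 0 counts in 9 libraries. The lowest count of a detected member in any library was 53, for PSMB9. The deposited counts are estimates and need not be whole. They were whole, within 1e-06, in all 9 libraries for 25 detected members, in none for PSMA1, PSMA2, PSMA6, PSMB10, PSMC1, PSMD7 and PSMD9, in 1 for PSMB8 and PSMG4, and in 2 for PSMD1 and PSMG2. Whether reads of these genes were split with other genes was not tested, and their values are uncertain in that respect.

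With As2S2, 24 of 46 members rose and 3 fell at an adjusted p under 0.05, where 20.3% of all genes tested were called higher and 19.6% lower. The median log2 fold change of the members was 0.24, and the range ran from -0.58 (PSMG4) to 0.86 (PSMD2). With PMA, 34 members rose and 6 fell, against 30.8% and 31.1% of all genes, with a median of 0.38 and a range from -0.93 (PSMG4) to 2.32 (PSMB9). The values of the 3 treated and 3 control libraries did not overlap for 25 members above and 4 below control with As2S2 (all genes: 23.1% and 22.7%), and for 34 above and 7 below with PMA (33.8% and 33.7%). Without control replicate 2 and As2S2 replicate 1, the counts were 28 higher and 7 lower with As2S2, where 25.4% and 24.8% of all genes were called. With PMA they were 37 and 7, where 34.4% and 33.3% were. Both comparisons use the same control libraries. On the deposited TPM without centring, the PMA comparison called 14 members higher and 18 lower (30.4% and 39.1%, against 13.5% and 48.1% of all genes on that scale), and 11 of the members called higher on CPM had the other sign there (PSMA1, PSMA7, PSMB2, PSMB5, PSMC4, PSMC5, PSMC6, PSMD1, PSMD7, PSMG2 and PSMG3), while the As2S2 comparison called 17 and 5 (37.0% and 10.9%, against 11.4% and 20.5%), with PSMA5 as the member whose sign differed. Against the median of all genes on that scale, 36 of 46 members lay above it with PMA and 33 of 46 with As2S2. After each library was centred on that median the calls were 32 higher and 7 lower with PMA, and 22 and 3 with As2S2. The shares of all genes were then 28.5% and 24.6% with PMA, and 18.3% and 12.6% with As2S2.

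Transcript length moved with the PMA result. The members had a median relative effective length of 0.531 against 1.08 for all genes tested, and 37 of 46 were shorter than the median gene. Over 5 equal bins of genes from short to long, the median log2 fold change of all genes with PMA ran 0.35, 0.11, 0.01, -0.14 and -0.33. The members in those bins (24, 10, 6, 5 and 1) had medians of 0.58, 0.31, 0.38, 0.38 and -0.49. With As2S2, the bins of all genes lay between -0.01 and 0.01, and those of the members were 0.16, 0.42, 0.51, 0.26 and 0.18. Once the length trend of each library was removed, 26 members were higher and 8 lower with PMA (median 0.27), and 27 higher and 3 lower with As2S2 (median 0.25). Of all genes, 30.5% were then called higher and 29.7% lower with PMA, and 21.5% and 20.2% with As2S2.

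**Figure D1:**
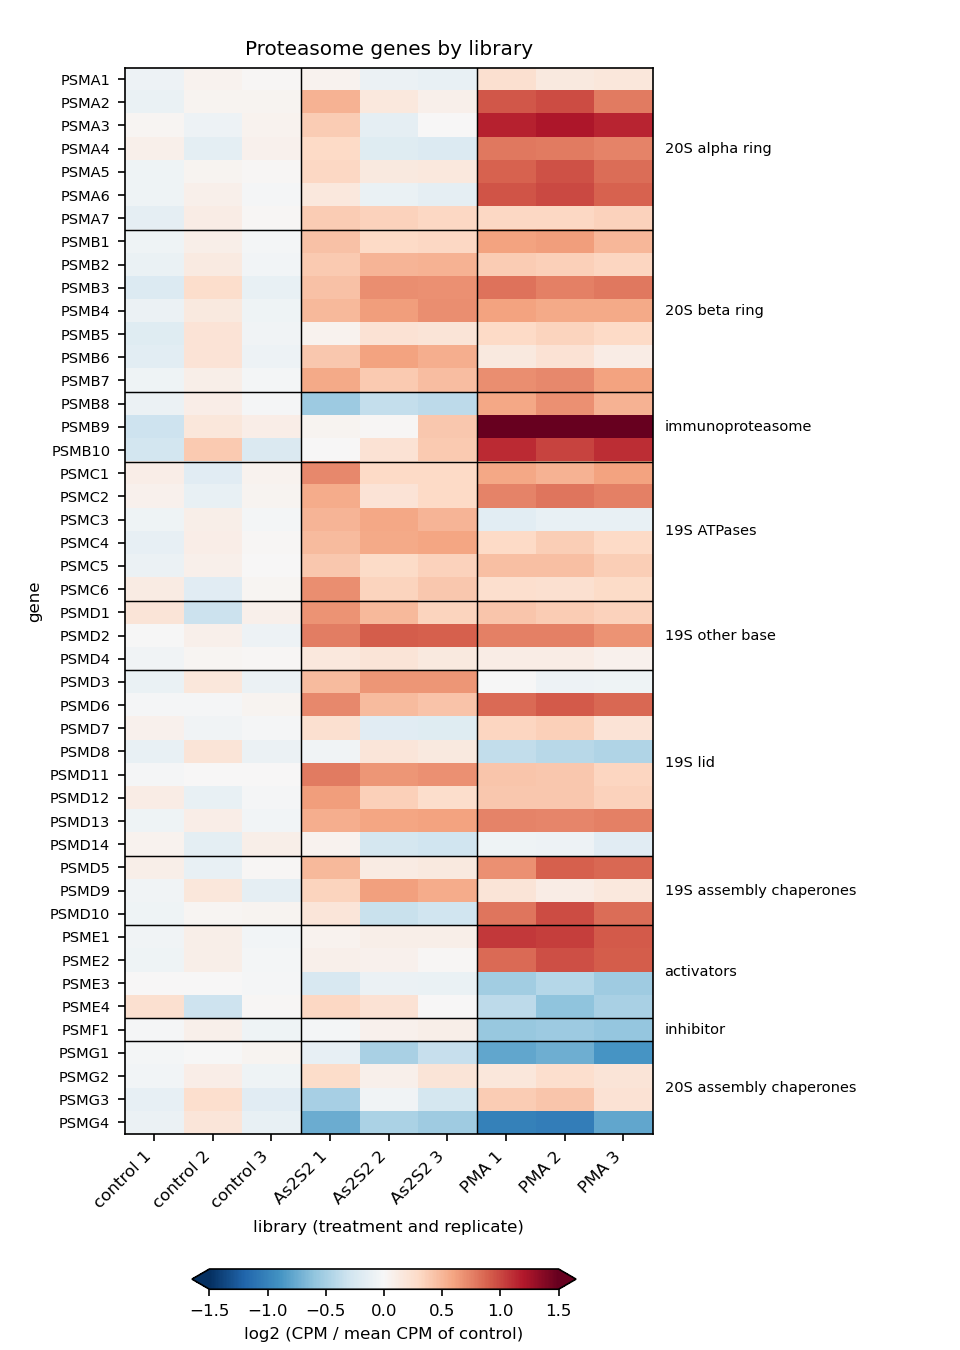
Each row is a detected proteasome gene and each column a library, and the colour is the log2 of its CPM over the mean CPM of the 3 control libraries, with the scale ending at 1.5 either way (PSMB9 with PMA lies beyond it). Most of the alpha ring, PSMB9, PSMB10, PSME1 and PSME2 are red in the PMA columns and paler in the As2S2 columns, whereas most of the beta ring and the 19S ATPases other than PSMC3 are red in both.

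Levels in untreated cells, taken as TPM so that genes can be compared, spanned from 3.31 ± 0.502 for PSMB9 to 316 ± 23.5 for PSMD8 (mean ± SD, n = 3). The levels of subunits of the same ring differed although an assembled core holds each in equal number. In the beta ring the highest was PSMB1 at 256 ± 3.36 TPM and the lowest PSMB2 at 70.5 ± 6.48 TPM, a ratio of 3.63. The alpha ring ran from PSMA5 (50.3 ± 1.33 TPM) to PSMA7 (209.5 ± 9.96 TPM), a ratio of 4.16. The low places of PSMB2 and PSMA5 rest on their length estimates. Their relative effective lengths were 1.76 and 1.80, the longest of the beta and alpha rings. In CPM, which is not divided by length, they were the highest of these rings in control (278 and 190). Among the 19S ATPases, which form a ring with a single copy of each, PSMC3 stood at 196 ± 16.8 TPM and PSMC2 at 17.5 ± 2.31 TPM, a ratio of 11.2. Within the lid, PSMD8 exceeded PSMD12 (17.96 ± 2.34 TPM) by a ratio of 17.6. These ratios also rest on length. PSMC2 and PSMD12 had the longest relative effective lengths of their lists, 1.19 and 1.11, against 0.40 for PSMC3 and 0.53 for PSMD8. In control CPM, PSMC3 read 166 and PSMC2 47.6, and PSMC6 was the lowest ATPase at 32.9. PSMD8 read 381 CPM and PSMD12 49.0 CPM. PSMB3 (253 ± 30.2 TPM) and PSMB4 (248 ± 7.92 TPM) lay next to PSMB1 within their spread. Of the activators, PSME2 (118 ± 0.521 TPM) and PSME1 (114 ± 0.469 TPM) had similar levels, PSME3 had 70.8 ± 3.25 TPM and PSME4 9.53 ± 1.64 TPM. The assembly chaperone PSMD5 was the second lowest of the detected members in TPM, at 8.98 ± 3.09, with a relative effective length of 1.595. In control CPM it read 25.98, above PSMB9, PSMG3 and PSMB10.

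**Figure D2:**
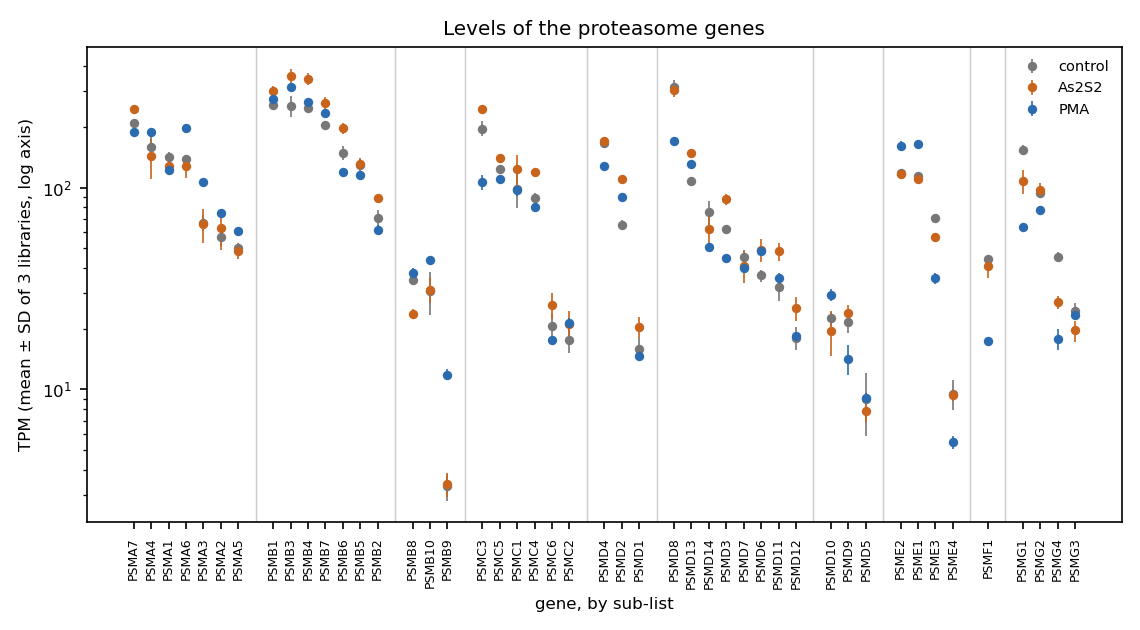
Points are mean TPM and bars the SD of 3 libraries for each of the 46 detected genes, on a log axis, grouped by sub-list and ordered by the control level within it. PSMB9 is lowest in control (3.31 TPM) and PSMD8 highest (316 TPM), and PMA separates from control most widely at PSMB9, PSMF1 and PSMG4.

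All 7 genes of the alpha ring rose with PMA (median log2 fold change 0.89), and 3 of 7 rose with As2S2 (median 0.10, and -0.07 without control replicate 2 and As2S2 replicate 1). On the deposited TPM without centring, PSMA1 and PSMA7 lay below control with PMA. PSMA3 read 56.6, 52.8 and 57.5 CPM in the control libraries, 72.6, 50.8 and 56.1 with As2S2 and 123, 129 and 123 with PMA. Its PMA libraries lay above all others, and the As2S2 libraries overlapped control (PMA 1.17 ± 0.10, adjusted p = 6.77e-08 by edgeR; As2S2 0.10 ± 0.10, adjusted p = 0.463). PSMA6 had 122, 135 and 126 CPM in the control libraries, 143, 119 and 116 with As2S2 and 245, 254 and 236 with PMA, again with PMA apart and As2S2 overlapping control (PMA 0.94 ± 0.08, adjusted p = 4.41e-08; As2S2 -0.02 ± 0.08, adjusted p = 0.884). PSMA5 gave 183, 196 and 192 CPM in the control libraries, 237, 210.2 and 212 with As2S2 and 350.1, 369 and 340.1 with PMA, and the 3 groups did not overlap (PMA 0.89 ± 0.07, adjusted p = 1.37e-08; As2S2 0.21 ± 0.07, adjusted p = 0.0268). The As2S2 call of PSMA5 was lost when As2S2 replicate 1 (adjusted p = 0.0553) or control replicate 1 (adjusted p = 0.0823) or 3 (adjusted p = 0.0584) was left out.

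PSMA7 was the alpha subunit with the smallest adjusted p under As2S2. It read 165, 195 and 182 CPM in the control libraries, 235, 229.9 and 225 with As2S2 and 224, 224 and 229 with PMA, with both treatments above all control libraries and overlapping each other (As2S2 0.35 ± 0.07, adjusted p = 0.000857; PMA 0.32 ± 0.07, adjusted p = 0.000731, and 0.03 with adjusted p = 0.644 once the length trend was removed). PSMA4 had 124, 107 and 124 CPM in the control libraries, 145, 104 and 103 with As2S2 and 204, 202 and 198 with PMA, so that only the PMA libraries lay above control (PMA 0.77 ± 0.11, adjusted p = 1.26e-05; As2S2 -0.01 ± 0.11, adjusted p = 0.948). As2S2 replicate 1 was the high library of its group for PSMA4, and without it and control replicate 2 the gene was lower with As2S2 (-0.26, adjusted p = 8.13e-05). PSMA1 showed the smallest PMA response of the ring, with 141, 153 and 150 CPM in the control libraries, 153, 139 and 136 with As2S2 and 174, 164 and 166 with PMA, where PMA lay above control and As2S2 overlapped it (PMA 0.18 ± 0.07, adjusted p = 0.0293; As2S2 -0.05 ± 0.07, adjusted p = 0.613). Its PMA call was lost under 7 of 20 settings. PSMA2 rose with PMA (0.90 ± 0.10, adjusted p = 1.23e-06) and reached the threshold with As2S2 (0.27 ± 0.10, adjusted p = 0.0483), a call lost under 11 of 20 settings.

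In the beta ring, 6 of 7 genes rose with As2S2 (median 0.48) and 6 of 7 with PMA (median 0.57), though PSMB2 and PSMB5 lay below control with PMA on uncentred TPM. Summed over the ring, TPM was 1311 ± 66.8 in control, 1681 ± 38.0 with As2S2 and 1388 ± 22.6 with PMA. PSMB4, a non-catalytic subunit, read 188, 220.5 and 191 CPM in the control libraries, 279, 309 and 324 with As2S2 and 304, 296 and 297 with PMA. Both treatments lay above every control library and overlapped each other (As2S2 0.60 ± 0.08, adjusted p = 1.44e-05; PMA 0.58 ± 0.08, adjusted p = 6e-06). PSMB3 followed it with 128, 177 and 137 CPM in the control libraries, 199.8, 238 and 238 with As2S2 and 259, 249.8 and 255 with PMA, both above control (As2S2 0.61 ± 0.10, adjusted p = 0.000186; PMA 0.79 ± 0.10, adjusted p = 4.99e-06). PSMB1 (0.35 with As2S2 and 0.57 with PMA) and PSMB2 (0.48 and 0.36) rose with both, with adjusted p between 2.55e-06 and 0.000869. 

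The 3 constitutive catalytic subunits did not share the same calls. PSMB7, which carries the trypsin-like site, read 173, 191 and 177 CPM in the control libraries, 267, 236 and 249 with As2S2 and 291, 298 and 274 with PMA, and both treatments lay above control (As2S2 0.48 ± 0.07, adjusted p = 6.41e-05; PMA 0.68 ± 0.07, adjusted p = 4.42e-07). PSMB6, which carries the caspase-like site, read 92.2, 119 and 97.5 CPM in the control libraries, 136, 156 and 151 with As2S2 and 114, 119.9 and 112 with PMA. Its As2S2 libraries exceeded all others (0.52 ± 0.09, adjusted p = 0.000259), while PMA overlapped control (0.16 ± 0.09, adjusted p = 0.135) and the direct difference between treatments passed the threshold (0.36 ± 0.09, adjusted p = 0.00241). The PMA value of PSMB6 turned with the setting: it was 0.27 without control replicate 2 (adjusted p = 0.00417) and -0.18 with the length trend removed (adjusted p = 0.0322). PSMB5, which carries the chymotrypsin-like site that bortezomib blocks, read 107, 139.8 and 117 CPM in the control libraries, 126, 141 and 139 with As2S2 and 149, 152 and 149 with PMA. PMA lay above control (0.31 ± 0.09, adjusted p = 0.00592) with the smallest change among the ring's called genes and lost its call with the length trend removed (adjusted p = 0.583), and As2S2 overlapped control (0.16 ± 0.09, adjusted p = 0.166, and 0.27 with adjusted p = 0.00493 without control replicate 2).

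The 3 immunoproteasome subunits all rose with PMA, and 0 of 3 were called higher with As2S2 by edgeR (0 also at an unadjusted p under 0.05, by DESeq2 and by voom). PSMB9 showed the highest fold change of any proteasome gene. It read 2.45, 3.41 and 3.25 CPM in the control libraries, 3.13, 3.07 and 4.03 with As2S2 and 16.5, 15.1 and 13.99 with PMA, so that the PMA libraries lay far above all others and As2S2 overlapped control. The fold was 5.0 with PMA (2.32 ± 0.16, adjusted p = 2.62e-09) and 1.12 with As2S2 (0.17 ± 0.18, adjusted p = 0.486). PSMB10 read 18.9, 30.1 and 19.7 CPM in the control libraries, 22.9, 26.6 and 30.1 with As2S2 and 49.7, 46.2 and 49.1 with PMA. PMA lay above all other libraries (1.08 ± 0.15, adjusted p = 7.74e-06), while control replicate 2 sat with the As2S2 libraries (0.22 ± 0.15, adjusted p = 0.263). Without control replicate 2, PSMB10 was higher with As2S2 (0.46, adjusted p = 0.00206). PSMB8 moved in opposite directions, with 35.6, 40.4 and 37.2 CPM in the control libraries, 25.98, 29.5 and 28.8 with As2S2 and 56.4, 60.8 and 54.1 with PMA. All As2S2 libraries lay below all control libraries (-0.43 ± 0.09, adjusted p = 0.00136) and all PMA libraries above them (0.60 ± 0.09, adjusted p = 1.95e-05). PSMB8 was the member called lower with As2S2 and higher with PMA, and it kept both calls under 20 other settings of scaling, filter, test and libraries. It lost the As2S2 call where a log2 fold change of at least 0.5 was also required, and the PMA call on TPM without centring (0.12, adjusted p = 0.157). An antisense gene, PSMB8-AS1, shares the locus, and read 1.19 to 1.74 CPM in control, 1.30 to 1.61 with As2S2 and 2.31 to 4.01 with PMA. With no strand setting named, its reads cannot be told apart from those of PSMB8. The direct difference between As2S2 and PMA was -1.02 ± 0.09 for PSMB8, -2.15 ± 0.16 for PSMB9 and -0.87 ± 0.15 for PSMB10, with adjusted p of 6.19e-08, 6.94e-09 and 7.73e-05.

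Because each inducible subunit takes the place of a constitutive one, the share of each pair's transcripts was computed from TPM, which cancels the scaling of a library. PSMB8 made up 22.4%, 20.1% and 21.3% of the PSMB8 and PSMB5 total in control, 15.3%, 15.4% and 15.3% with As2S2, and 24.3%, 25.7% and 23.9% with PMA. The 3 groups did not overlap, and the ratio of PSMB8 to PSMB5 was 0.672 times control with As2S2 and 1.21 times control with PMA. PSMB9 made up 1.93%, 2.13% and 2.43% of its pair with PSMB6 in control, 1.72%, 1.43% and 1.92% with As2S2 and 9.88%, 8.50% and 8.54% with PMA. Its ratio was 4.37 times control with PMA, and 0.775 times with As2S2, where the highest As2S2 library lay just under the lowest control library. PSMB10 made up 11.1%, 16.2% and 11.7% of its pair with PSMB7 in control, 8.67%, 11.3% and 12.1% with As2S2, and 15.8%, 14.7% and 16.5% with PMA. Both treatments overlapped control for this pair (exact permutation p = 0.5 and 0.3, two-sided), and As2S2 lay below PMA (0.64 times). Over the 9 ratios compared, the 7 without overlap each had an exact permutation p = 0.1, the smallest that 3 against 3 libraries allow, and an adjusted p = 0.129, so none could pass the threshold. Transcripts of the constitutive subunit were more abundant than those of the inducible one in all 3 pairs and all 9 libraries.

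**Figure D3:**
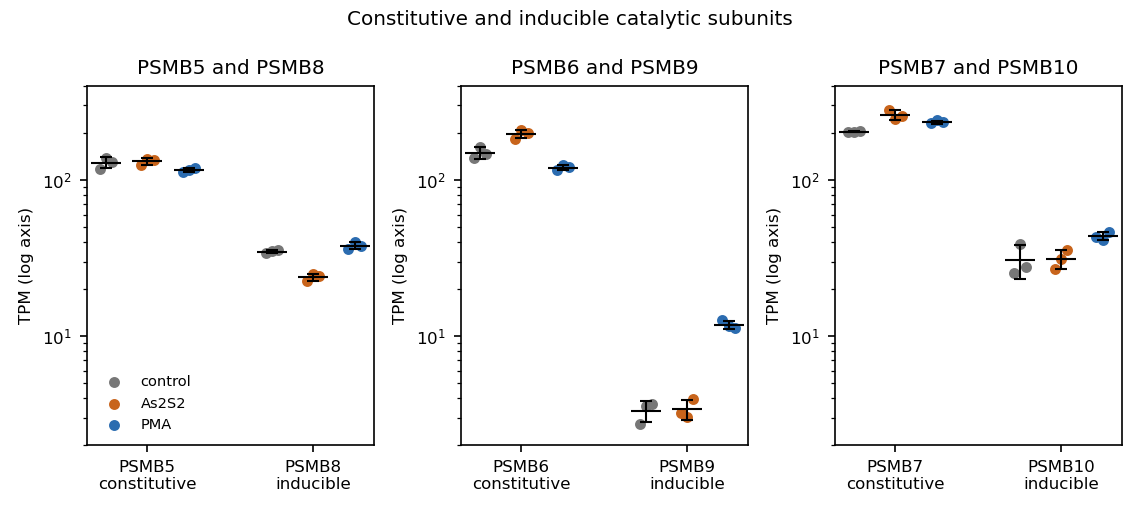
Points are the TPM of single libraries on a log axis, with the mean and SD of 3 libraries in black, for each constitutive catalytic subunit and the inducible one that replaces it. PSMB9 stands at 11.3 to 12.7 TPM with PMA against 2.73 to 3.92 in the other libraries, and PSMB8 is lowest with As2S2.

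The base of the 19S particle rose with As2S2 throughout. All 6 ATPases rose with As2S2 within a narrow band, from 0.35 to 0.55 (SD over the 6 genes 0.08), and 5 of 6 rose with PMA over a wider band, from -0.13 to 0.76 (SD 0.30). On the deposited TPM the sum of the 6 ATPases was 545 ± 43.3 in control, 675 ± 31.1 with As2S2 and 432 ± 18.8 with PMA, so that without centring the PMA direction of the ring turned. PSMC3 separated the treatments, with 159, 176 and 163 CPM in the control libraries, 236, 248 and 236 with As2S2 and 148, 154 and 154 with PMA. Its As2S2 libraries lay above (0.53 ± 0.07, adjusted p = 1.12e-05) and its PMA libraries below every control library (-0.13 ± 0.07, adjusted p = 0.107), and the PMA value passed the threshold on centred TPM (-0.44, adjusted p = 0.000174) and with the length trend removed (-0.40, adjusted p = 1.61e-05). PSMC4 read 149.5, 174 and 166 CPM in the control libraries, 227, 242 and 247 with As2S2 and 200.2, 210.2 and 201 with PMA, in the order As2S2 over PMA over control without overlap (As2S2 0.55 ± 0.07, adjusted p = 1.92e-05; PMA 0.32 ± 0.07, adjusted p = 0.000998). PSMC2 had the larger response to PMA, with 49.7, 44.3 and 48.9 CPM in the control libraries, 70.3, 54.99 and 58.8 with As2S2 and 79.6, 82.9 and 80.4 with PMA, the 3 groups apart (As2S2 0.36 ± 0.09, adjusted p = 0.00475; PMA 0.76 ± 0.09, adjusted p = 2.05e-06). The other ATPases, PSMC1, PSMC5 and PSMC6, rose with both treatments, by 0.45, 0.35 and 0.49 with As2S2 and 0.57, 0.42 and 0.26 with PMA. The PMA call of PSMC6 was lost under 9 of 20 settings.

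PSMD2, a large scaffold of the base that receives ubiquitin-like domains, had the highest As2S2 fold change of all members. It read 154, 162 and 146 CPM in the control libraries, 261, 289 and 287 with As2S2 and 259, 259.9 and 245 with PMA. Both treatments lay above all control libraries, with As2S2 at a fold of 1.81 (0.86 ± 0.07, adjusted p = 1.36e-07) and PMA at 1.65 (0.73 ± 0.07, adjusted p = 1.55e-07), and the direct difference did not pass the threshold (0.13 ± 0.07, adjusted p = 0.105). PSMD1, the other large scaffold, read 62.4, 43.6 and 57.2 CPM in the control libraries, 86.5, 76.4 and 68.7 with As2S2 and 72.7, 70.6 and 69.3 with PMA, both above control (As2S2 0.50 ± 0.11, adjusted p = 0.00218; PMA 0.38 ± 0.11, adjusted p = 0.00819). PSMD4, a ubiquitin receptor, moved little, with 208, 219.8 and 219 CPM in the control libraries, 239.8, 247 and 239.6 with As2S2 and 234, 233 and 226 with PMA, both just above control (As2S2 0.17 ± 0.06, adjusted p = 0.0398; PMA 0.10 ± 0.06, adjusted p = 0.179). Its As2S2 call was lost under 11 of 20 settings.

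The 19S lid, which holds the deubiquitinase of the particle, was mixed. With As2S2, 5 of 8 genes rose (median 0.49), and with PMA 5 rose and PSMD8 fell (median 0.34). PSMD11, a lid subunit that also contacts the core, read 79.9, 81.1 and 81.4 CPM in the control libraries, 139, 128 and 129.6 with As2S2 and 108, 107 and 101 with PMA, in the order As2S2 over PMA over control without overlap (As2S2 0.71 ± 0.07, adjusted p = 8.35e-07; PMA 0.38 ± 0.07, adjusted p = 0.000131). PSMD13 read 166, 186 and 169 CPM in the control libraries, 253, 262 and 264 with As2S2 and 290.4, 289.9 and 294 with PMA, with each PMA library above each As2S2 library (As2S2 0.58 ± 0.07, adjusted p = 4.14e-06; PMA 0.75 ± 0.07, adjusted p = 5.53e-08). The direct difference of PSMD13 (-0.17 ± 0.06, adjusted p = 0.0361) lost its call under 10 of 20 settings, among them each As2S2 or PMA library left out (adjusted p up to 0.104). PSMD6 had 49.1, 49.1 and 51.1 CPM in the control libraries, 82.1, 69.3 and 66.99 with As2S2 and 89.6, 94.4 and 90.3 with PMA and the same order (As2S2 0.55 ± 0.08, adjusted p = 7.83e-05; PMA 0.88 ± 0.08, adjusted p = 1.44e-07). PSMD12 rose by 0.42 with As2S2 and 0.39 with PMA.

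PSMD3, the lid gene whose promoter sequence is shown above, read 137, 164 and 137 CPM in the control libraries, 202, 230.3 and 231 with As2S2 and 146, 139 and 139.9 with PMA. As2S2 lay above all other libraries (0.60 ± 0.08, adjusted p = 2.8e-05), PMA overlapped control (-0.05 ± 0.08, adjusted p = 0.652), and the treatments differed directly (0.65 ± 0.08, adjusted p = 4.11e-06). PSMD8, the most abundant member in control, read 351, 434 and 357 CPM in the control libraries, 368, 433 and 422 with As2S2 and 295, 286 and 278 with PMA. Its PMA libraries lay below all others (-0.41 ± 0.09, adjusted p = 0.000542), and its As2S2 libraries overlapped control (0.10 ± 0.09, adjusted p = 0.385, and 0.20 with adjusted p = 0.0266 without control replicate 2). PSMD14, the deubiquitinase, read 126, 109.8 and 129 CPM in the control libraries, 127, 101 and 99.1 with As2S2 and 117, 116 and 108 with PMA, and was the member called in neither comparison with control (As2S2 -0.16 ± 0.09, adjusted p = 0.191; PMA -0.10 ± 0.09, adjusted p = 0.369). It was lower with As2S2 when As2S2 replicate 1 was left out (-0.28, adjusted p = 0.0102) or control replicate 2 (-0.22, adjusted p = 0.0489). PSMD7, which pairs with PSMD14 in the particle, rose with PMA (0.30 ± 0.10, adjusted p = 0.0166, lost without control replicate 3, adjusted p = 0.0503, or PMA replicate 1, adjusted p = 0.0521, or 2, adjusted p = 0.0724) and overlapped control with As2S2 (-0.02 ± 0.10, adjusted p = 0.875).

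The 3 chaperones that help to assemble the 19S base differed in which treatment moved them. PSMD10, also known as the oncoprotein gankyrin, read 29.8, 31.8 and 32.1 CPM in the control libraries, 35.4, 24.9 and 25.4 with As2S2 and 54.6, 61.5 and 55.9 with PMA, so that PMA was above all other libraries (0.88 ± 0.12, adjusted p = 6.35e-06) and As2S2 overlapped control (-0.13 ± 0.12, adjusted p = 0.41). Without As2S2 replicate 1, PSMD10 was lower with As2S2 (-0.31, adjusted p = 0.0116). PSMD5 read 27.6, 24.1 and 26.2 CPM in the control libraries, 36.4, 28.2 and 28.7 with As2S2 and 41.9, 48.5 and 47.2 with PMA, the 3 groups apart (PMA 0.82 ± 0.11, adjusted p = 6e-06; As2S2 0.26 ± 0.11, adjusted p = 0.0693, and 0.33 with adjusted p = 0.0491 without As2S2 replicate 2). PSMD9 went the other way, with 28.5, 33.2 and 26.8 CPM in the control libraries, 37.2, 45.3 and 43.5 with As2S2 and 33.6, 32.01 and 33.04 with PMA, where As2S2 was above all other libraries (0.51 ± 0.10, adjusted p = 0.000801) and PMA overlapped control (0.16 ± 0.10, adjusted p = 0.193, and 0.24 with adjusted p = 0.0394 without control replicate 2). The direct difference between As2S2 and PMA was -1.01 for PSMD10, -0.56 for PSMD5 and 0.35 for PSMD9, with adjusted p of 1.63e-06, 0.000273 and 0.0063.

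With PMA, 2 of the 4 activators rose and 2 fell, and 0 of 4 were called with As2S2 by edgeR (0 also at an unadjusted p under 0.05, by DESeq2 and by voom, and 1, PSME3, as lower with upper-quartile scaling, adjusted p = 0.0493). PSME1 and PSME2, the interferon-responsive subunits of PA28, rose with PMA by similar folds. PSME1 read 95.7, 105 and 95.8 CPM in the control libraries, 102, 105 and 105 with As2S2 and 207, 203 and 187 with PMA (fold 2.01 with PMA, 1.01 ± 0.07, adjusted p = 3.44e-09). PSME2 read 76.1, 84.1 and 77.7 CPM in the control libraries, 83.8, 83.1 and 80.6 with As2S2 and 143, 155 and 149 with PMA (fold 1.88 with PMA, 0.91 ± 0.07, adjusted p = 1.21e-08). For both genes the PMA libraries lay apart from all others and As2S2 overlapped control (0.08 and 0.06, adjusted p = 0.411 and 0.554). PSME3, which forms a nuclear version of the same cap, fell with PMA, with 232, 232 and 228 CPM in the control libraries, 195, 217 and 215 with As2S2 and 161, 172 and 159 with PMA, the 3 groups apart (PMA -0.49 ± 0.07, adjusted p = 8.61e-06; As2S2 -0.14 ± 0.07, adjusted p = 0.106). PSME4, the large nuclear activator known as PA200, read 51.7, 35.2 and 44.2 CPM in the control libraries, 54.05, 51.01 and 43.7 with As2S2 and 33.4, 28.8 and 31.3 with PMA, and only the PMA libraries lay below control (PMA -0.49 ± 0.12, adjusted p = 0.00267; As2S2 0.18 ± 0.12, adjusted p = 0.256, and 0.33 with adjusted p = 0.0497 without control replicate 1). PSMF1, known as an inhibitor of isolated cores, read 101, 108 and 97.8 CPM in the control libraries, 99.9, 107 and 108 with As2S2 and 68.7, 70.02 and 68.1 with PMA. PMA lay below all other libraries (-0.57 ± 0.07, adjusted p = 3.1e-06) and As2S2 overlapped control (0.04 ± 0.07, adjusted p = 0.703).

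The 4 chaperones that build the alpha ring work as the pairs PSMG1 with PSMG2 and PSMG3 with PSMG4, and in neither pair did both partners have the same calls. PSMG1 read 183, 185 and 191 CPM in the control libraries, 170.4, 133 and 147 with As2S2 and 108, 112 and 101 with PMA, in the order control over As2S2 over PMA without overlap (As2S2 -0.31 ± 0.08, adjusted p = 0.00719; PMA -0.80 ± 0.08, adjusted p = 5.33e-07). The As2S2 call of PSMG1 was lost without As2S2 replicate 2 (adjusted p = 0.0548). Its partner PSMG2 read 86.5, 95.2 and 84.7 CPM in the control libraries, 107, 93.5 and 102 with As2S2 and 99.8, 106 and 101 with PMA, with PMA above control and As2S2 overlapping it (As2S2 0.18 ± 0.08, adjusted p = 0.0651; PMA 0.21 ± 0.08, adjusted p = 0.0261), with a PMA call lost under 7 of 20 settings. PSMG4 read 25.1, 30.3 and 24.8 CPM in the control libraries, 15.96, 19.2 and 18.4 with As2S2 and 13.3, 13.1 and 15.6 with PMA, again below control in both treatments without overlap (As2S2 -0.58 ± 0.11, adjusted p = 0.000771; PMA -0.93 ± 0.12, adjusted p = 3.49e-06). Its partner PSMG3 read 17.6, 22.8 and 17.04 CPM in the control libraries, 13.6, 18.4 and 16 with As2S2 and 24.98, 25.5 and 22.3 with PMA, with overlap between each treatment and control (As2S2 -0.26 ± 0.13, adjusted p = 0.136; PMA 0.34 ± 0.13, adjusted p = 0.0299, lost under 5 of 20 settings). PSMG1 and PSMG4 were the 2 members called lower in both comparisons, which share the control libraries. On TPM, PSMG1 stood at 154 ± 8.77 in control, 108 ± 15.02 with As2S2 and 63.5 ± 3.22 with PMA. PSMG4 stood at 45.5 ± 2.43, 27.1 ± 1.99 and 17.8 ± 2.11.

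**Figure D4:**
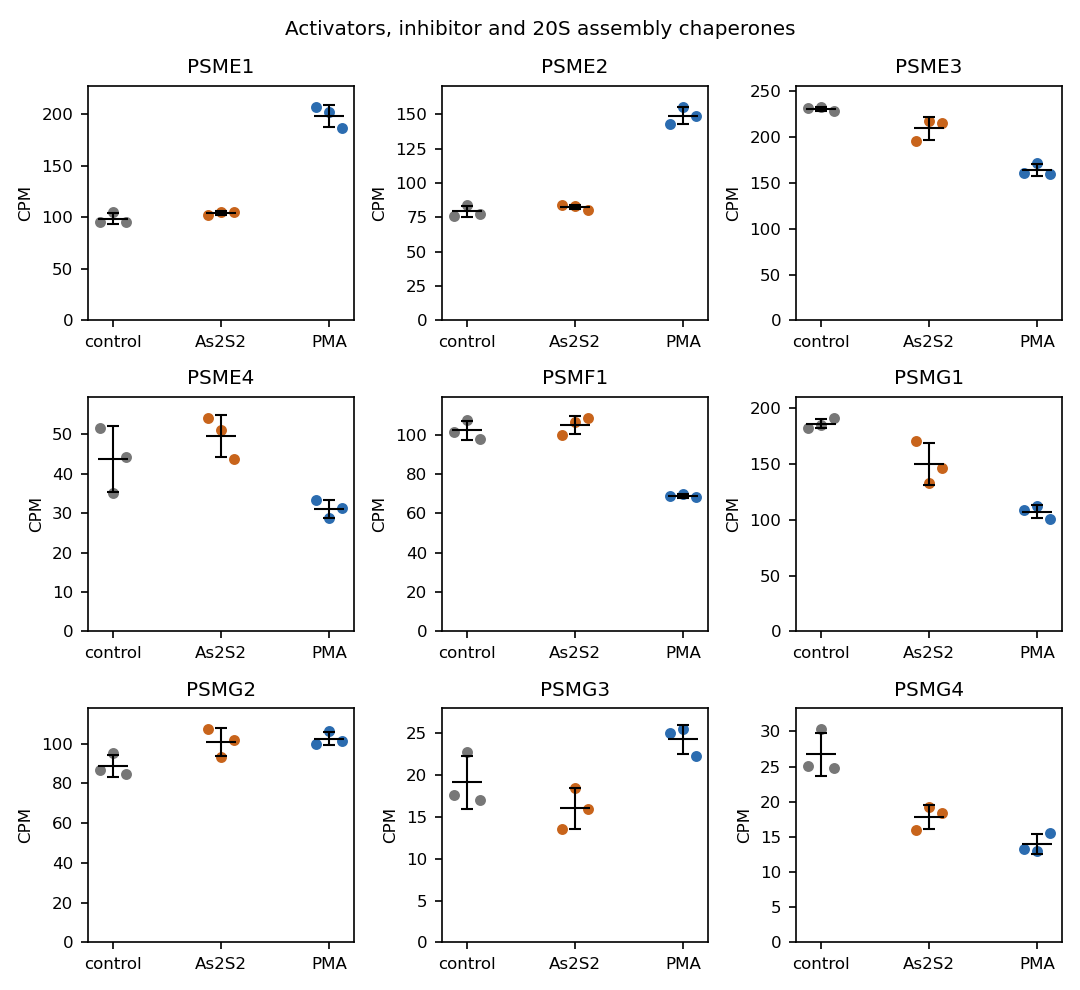
Points are the CPM of single libraries and black marks the mean and SD of 3 libraries, on axes that start at 0, for the activators, the inhibitor and the alpha-ring chaperones. PSME1 and PSME2 are higher with PMA, PSME3, PSME4 and PSMF1 lower with PMA, and PSMG1 and PSMG4 lower in both treatments.

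Set directly against each other, As2S2 and PMA differed for 32 of 46 members: 12 were higher and 20 lower with As2S2, against 30.9% and 30.6% of all genes tested. The libraries did not overlap for 16 members above and 21 below (all genes 33.6% and 33.6%). The split depended on length and scale, since 37.5% of the calls were higher as fitted, 59.4% (19 higher, 13 lower) with the length trend removed, and 46.7% (14 higher, 16 lower) on centred TPM. Of all genes, 29.8% were called higher and 30.2% lower with the trend removed, and 26.9% and 26.1% on centred TPM. On the deposited TPM without centring, 25 were higher and 11 lower (54.3% and 23.9%, against 41.6% and 15.9% of all genes on that scale). There 6 members called on CPM had the other sign (PSMA1, PSMB1, PSMB7, PSMD6, PSMD7 and PSMD13). The genes higher with As2S2 on the main scale included PSMC3, PSMD3, PSME4, PSMF1 and PSMD8 (0.66, 0.65, 0.67, 0.61 and 0.51). Those lower with As2S2 included 6 of the 7 alpha subunits, led by PSMA3 (-1.06 ± 0.10, adjusted p = 2.16e-07) and PSMA6 (-0.96 ± 0.08, adjusted p = 3.94e-08), all 3 immunoproteasome subunits, and PSME1 (-0.93 ± 0.07, adjusted p = 1.01e-08) and PSME2 (-0.85 ± 0.07, adjusted p = 2.94e-08). The beta ring had 1 gene higher and 2 lower, with a median of -0.15, which turned to 0.15 with the length trend removed. Across both comparisons with control, 19 members rose in each: PSMA2, PSMA5 and PSMA7, 5 beta subunits (PSMB1, PSMB2, PSMB3, PSMB4 and PSMB7), 5 ATPases (all but PSMC3), and PSMD1, PSMD2, PSMD6, PSMD11, PSMD12 and PSMD13. The share of all genes called higher in both was not computed, and the comparisons share their control libraries. The joint count therefore has no background to be read against. The 5 members called higher with As2S2 and not called with PMA were PSMB6, PSMC3, PSMD3, PSMD4 and PSMD9, and for PSMD4 the direct difference did not pass the threshold (0.07 ± 0.06, adjusted p = 0.342).

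**Figure D5:**
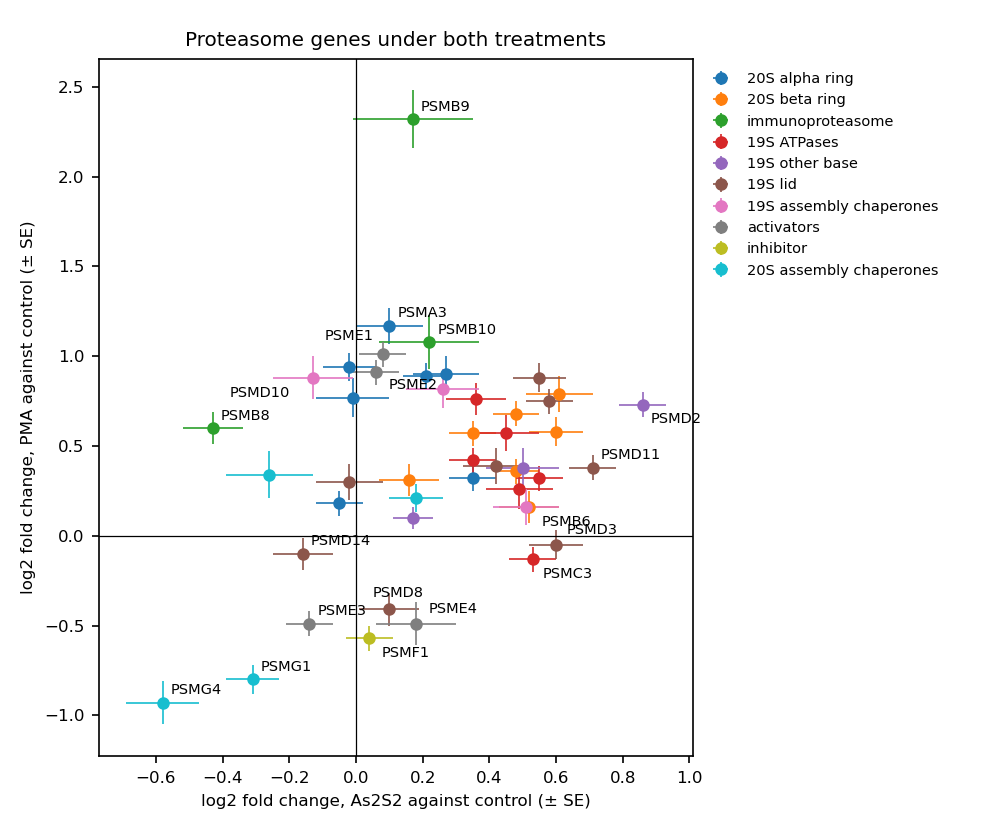
Each point is a detected proteasome gene, with its log2 fold change against control under As2S2 on the horizontal axis and under PMA on the vertical axis, and bars are SEs of the fit; both axes share the control libraries. PSMB9 stands at the top (2.32 with PMA), PSMD2 at the right (0.86 with As2S2) and PSMG1 and PSMG4 at the lower left.

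Genes that work with the proteasome but fall outside the name rule were read from lists. Their counts stand beside 20.3% higher and 19.6% lower of all genes with As2S2, and 30.8% and 31.1% with PMA. Of 13 partner genes, 7 rose and 2 fell with As2S2 (53.8% and 15.4%), and 6 rose and 4 fell with PMA (46.2% and 30.8%). POMP, the chaperone that completes the beta ring, read 97.4, 101 and 101 CPM in the control libraries, 157, 138 and 141 with As2S2 and 218, 238 and 217 with PMA, without overlap between the 3 groups (As2S2 0.54 ± 0.07, adjusted p = 2.42e-05; PMA 1.17 ± 0.07, adjusted p = 8.28e-10). ADRM1, a ubiquitin receptor of the base, read 62.3, 84.2 and 66.7 CPM in the control libraries, 121, 142 and 141 with As2S2 and 79.1, 74.9 and 78.6 with PMA, with As2S2 alone above control (0.93 ± 0.10, adjusted p = 2.84e-06). SEM1, the small lid subunit, rose by 0.55 with As2S2 and 0.91 with PMA. ECPAS, a scaffold that binds the assembled proteasome, read 72.7, 56.5 and 60.1 CPM in the control libraries, 42.5, 39.9 and 35.6 with As2S2 and 24.9, 24.7 and 24.97 with PMA and fell in both without overlap (As2S2 -0.68 ± 0.10, adjusted p = 5.74e-05; PMA -1.35 ± 0.10, adjusted p = 1.2e-08). ZFAND2A, a stress-induced binding partner of the 19S particle, rose by 0.48 with As2S2 and 1.21 with PMA, and the deubiquitinase UCHL5 fell by 0.51 and 0.72. 

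Among 12 tested genes for ubiquitin and shuttle proteins, 6 rose and 2 fell with As2S2 (50% and 16.7%), and 4 rose and 3 fell with PMA (33.3% and 25.0%, close to the shares of all genes). UBB, which encodes a chain of linked ubiquitins, rose by 0.68 with As2S2 and 0.72 with PMA. DDI2, the protease that releases active NFE2L1, fell with As2S2 (-0.66 ± 0.13, adjusted p = 0.000969). Among 12 regulators of proteasome genes, 6 rose and 2 fell with As2S2 (50% and 16.7%), and 4 rose and 4 fell with PMA (33.3% each way, close to the shares of all genes). NFE2L1 itself read 255, 258 and 254 CPM in the control libraries, 201, 219 and 229 with As2S2 and 119.7, 116 and 119 with PMA, in the order control over As2S2 over PMA without overlap (As2S2 -0.24 ± 0.07, adjusted p = 0.0083; PMA -1.12 ± 0.07, adjusted p = 5.92e-10). NFE2L2 fell by 0.36 and 0.66. VCP, the segregase that extracts ubiquitinated protein and NFE2L1 from membranes, rose by 0.62 with As2S2 and 0.20 with PMA, and its cofactor NPLOC4 rose with As2S2 (0.89 ± 0.07, adjusted p = 8.89e-08).

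Of the class I antigen processing genes, 12 of 16 rose and 1 fell with PMA (75.0% and 6.25%, median 0.85), whereas 4 rose and 2 fell with As2S2 (25.0% and 12.5%, median -0.08). B2M, the light chain of class I molecules, read 642, 674 and 711 CPM in the control libraries, 913, 807 and 809 with As2S2 and 2518, 2628 and 2393 with PMA, without overlap between the groups (As2S2 0.32 ± 0.07, adjusted p = 0.00192; PMA 1.90 ± 0.07, adjusted p = 2.05e-12). HLA-B read 96.5, 126 and 104 CPM in the control libraries, 88.3, 103 and 100.1 with As2S2 and 458, 457 and 478 with PMA, with PMA alone apart (PMA 2.09 ± 0.09, adjusted p = 1.21e-11). TAP1, the peptide transporter chain encoded beside PSMB9, read 25.6, 31.3 and 28.8 CPM in the control libraries, 26.9, 29.6 and 31.6 with As2S2 and 50.5, 55.3 and 49.9 with PMA, with PMA alone apart (PMA 0.86 ± 0.10, adjusted p = 1.03e-06; As2S2 0.04 ± 0.10, adjusted p = 0.788). TAP2 and ERAP1 fell with As2S2 by 0.34 and 0.60. Of 10 tested interferon signalling genes, 7 rose and 2 fell with PMA (70% and 20%), and 3 rose and 2 fell with As2S2 (30% and 20%). IRF1, a factor that binds interferon response elements, read 24.6, 25.8 and 26.2 CPM in the control libraries, 26.5, 29.6 and 31.8 with As2S2 and 54.2, 56.7 and 55.7 with PMA, with PMA above all other libraries (1.12 ± 0.09, adjusted p = 1.56e-08). SOCS1, a feedback inhibitor of this pathway, had log2 fold changes of 0.79 with As2S2 and -0.90 with PMA.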

How the data were processed

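Poly(A)-selected RNA of 9 MEG-01 libraries was sequenced (NEBNext Ultra II kit, per the labels' protocols), and the labels gave groups and replicate numbers. Per the submitters' processing notes, fastp 0.22.0 and DESeq2 were used. The builds named there, GRCz11 and danRer11, are zebrafish builds, and the organism label of 1 sample is not human, while the deposited tables carry human Ensembl IDs. No aligner, counting tool or strand setting is named in the sources used here. The authors deposited estimated counts (expected counts, not normalized) and TPM for each gene and library, as the file headers say. Beside these, the deposited tables hold the authors' ratio of means, log2 fold change and p-value, which were not used. The control values in both tables differed in 0 cells. Symbols were found for 62666 of 63241 IDs.

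Counts were rounded, filtered with filterByExpr (14592 genes kept) and scaled by TMM. All 9 libraries entered a single model in edgeR 4.0.16 (R 4.3.3), tested by quasi-likelihood, with Benjamini-Hochberg adjustment over all genes tested and a threshold of 0.05. The common biological coefficient of variation was 0.0909. A change is called higher or lower at that threshold. Errors are SEs of the fit beside log2 fold changes and SDs of 3 libraries beside levels. Ratios of TPM pairs (0.1 added to each) were compared with two-sided exact permutation tests (scipy 1.17.1). Alternatives were upper-quartile or RLE scaling, the Wald test of DESeq2 1.42.0, voom of limma 3.58.1, no or a stricter count filter, fits of only the groups compared, a replicate block, stricter thresholds, removal of length trends and left-out libraries. Centred log2 TPM (0.1 added) was added after seeing the data. On counts simulated for 13651 genes of the As2S2 comparison, 70% of genes raised by 0.5 and 46% of genes lowered by 0.5 on the log2 scale were recovered, and 98% and 90% at 1. Only 50 genes were changed at each of these steps, and all genes were given the same dispersion. In the data, 20.3% of genes were called higher and 19.6% lower with As2S2. The recovered shares therefore do not give the sensitivity for the members.

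Named genes were the catalytic subunits, activators, inhibitor, assembly chaperones and PSMD4. In each comparison and sub-list the rule also took the 2 members with the smallest and the 1 with the largest adjusted p. Of other lists it took up to 3 genes each way. A few further genes of those lists (DDI2, HLA-B and TAP1 among them) and the promoters shown were picked after their values were seen. Members and lists were chosen with earlier results of these data known. Some genes of the other lists are not reported here.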

Additional observations from a re-analysis of the deposited data

How the results depend on the processing

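With upper-quartile or RLE scaling, DESeq2, voom, other count filters, only the groups compared and centred TPM, counts of members called stayed within 1.5 times those reported. On TPM without centring they were 17 higher and 5 lower with As2S2, 14 and 18 with PMA, and 25 and 11 in As2S2 against PMA. With a log2 fold change of at least 0.5 also required, 12 members were higher and 1 lower with As2S2, 21 and 3 with PMA, and 5 and 13 in As2S2 against PMA. The shares of all genes there were 11.3% and 11.5%, 22.6% and 22.9%, and 22.2% and 22.7%. With length trends removed, As2S2 against PMA gave 19 higher and 13 lower. Leaving out single libraries gave 21 to 28 higher and 2 to 5 lower with As2S2 (5 lower without As2S2 replicate 1), 29 to 35 higher and 6 lower with PMA, and 11 to 14 higher and 15 to 21 lower in As2S2 against PMA. Shares of all genes in these fits ran from 16.2% to 22.1% higher and 14.8% to 20.2% lower with As2S2. They ran from 27.8% to 31.8% each way with PMA, and in As2S2 against PMA from 27.7% to 32.4% higher and 27.1% to 31.5% lower. Without both control replicate 2 and As2S2 replicate 1, 7 members were lower with As2S2. The ratio of PSMB10 to PSMB7 with As2S2 turned from -0.31 to 0.04 on the log2 scale without those libraries. The cause was not tested.

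Same-numbered libraries correlated between -0.073 and 0.149 in their deviations from group means. With 3 libraries per group and an outlying library in control and in As2S2, these values cannot decide whether same-numbered libraries were handled together. With the replicate block, 23 members were higher and 3 lower with As2S2, 34 and 6 with PMA, and 13 and 20 in As2S2 against PMA. The shares of all genes were 20.6% and 20.3%, 31.3% and 31.6%, and 31.1% and 30.8%.

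Signs turned for the values below, most but not all of them close to 0. With length trends removed, As2S2 against control gave 0.01 for PSMA4 and 0.01 for PSMA6. PMA against control gave -0.06 for PSMG2, -0.07 for PSMA1, -0.18 for PSMB6 (adjusted p = 0.0322) and -0.09 for PSMD4. As2S2 against PMA gave 0.12 for PSMB1, 0.14 for PSMC5, 0.20 for PSMC1, 0.15 for PSMB5, 0.06 for PSMD14, -0.05 for PSMB2, 0.28 for PSMG2 (adjusted p = 0.00295), 0.05 for PSMA1, 0.12 for PSMB7, -0.0023 for PSMD1 and 0.21 for PSMB3 (adjusted p = 0.0266). Of these, PSMA1, PSMB1 and PSMB7 were called lower as reported (-0.23, -0.22 and -0.20). On centred TPM, As2S2 against control gave 6.4e-05 for PSMA4, 0.04 for PSMA6, 0.01 for PSMD7 and 0.01 for PSMA1, PMA gave -0.16 for PSMD9, and As2S2 against PMA gave 0.07 for PSMC5, 0.05 for PSMC1, 0.0021 for PSMD14 and 0.04 for PSMG2. The count filters turned PSMG2 in As2S2 against PMA (0.01, no filter) and PSMA4 in As2S2 against control (0.00019, stricter filter). Upper-quartile scaling gave -0.03 for PSMA7, -0.03 for PSMB4 and -0.02 for PSMD12 in As2S2 against PMA. Without both control replicate 2 and As2S2 replicate 1, As2S2 against control gave -0.02 for PSME4 and -0.09 for PSMA3, PMA 0.04 for PSMD3, and As2S2 against PMA -0.07 for PSMD12. With single libraries left out, As2S2 against control ranged from -0.19 to 0.08 for PSMA4, -0.06 to 0.22 for PSMA3, -0.11 to 0.04 for PSMA6 and -0.17 to 0.05 for PSMD7, PMA reached 0.04 for PSMD3, and As2S2 against PMA ranged from -0.17 to 0.01 for PSMD14 and -0.02 to 0.09 for PSMB4, reaching -0.07 for PSMD12 and 0.04 for PSMG2.

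The lowest count behind a detected member was 53, for PSMB9, whose SE was 0.18 with As2S2, against 0.15 for PSMB10.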
